A study of Rattus norvegicus with 4 samples.

Results

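The genes of the GABA-B receptor and of the G protein-gated inwardly rectifying potassium (GIRK) channels were described across cell types of the adult rat ventral tegmental area (VTA), the midbrain area whose dopamine neurons serve reward and motivation. The 6 genes, of 32883 listed in the deposited tables, were taken by symbol: Gabbr1 (ENSRNOG00000000774), Gabbr2 (ENSRNOG00000008431), Kcnj3 (ENSRNOG00000005369), Kcnj5 (ENSRNOG00000033796), Kcnj6 (ENSRNOG00000001658) and Kcnj9 (ENSRNOG00000007645). The data were 4 single-nucleus RNA libraries made with droplets, 2 from females and 2 from males, all of experimentally naïve Sprague-Dawley rats aged 90 to 120 days with no genetic change or treatment named. Each library pooled the VTA of 3 animals of the same sex, so the library was the replicate. Nuclei had been stained with the DNA dye 7-AAD and sorted before capture.

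Nuclei were assigned to 8 cell groups by raw counts of unique molecular identifiers (UMIs, each standing for 1 captured RNA molecule), and such an assignment is called a gate here. Of 20620 kept nuclei, 306 were dopamine nuclei (at least 2 UMIs each of Th and Slc6a3, the genes of the dopamine-synthesis enzyme and of the dopamine transporter). Another 144 were Slc26a7-Gad2 nuclei (at least 1 UMI of both genes), 1108 were GABA nuclei (at least 2 UMIs of Gad1) and 1511 were glutamate nuclei (at least 2 UMIs of Slc17a6 and none of Gad1). Among glia, 8503 were oligodendrocytes (Mog and Mobp), 1331 oligodendrocyte precursors (Pdgfra), 1851 astrocytes (Gja1 and Aqp4) and 924 microglia (Csf1r and C1qa). A further 4776 nuclei met no gate and 166 met conflicting gates, and neither were used. Dopamine nuclei numbered 72 and 79 in the female libraries and 69 and 86 in the male ones.

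Depth differed among the gates. Median UMIs per nucleus were 9111.5 in dopamine nuclei, 7594.5 in Slc26a7-Gad2 nuclei, 7498.5 in GABA nuclei and 8249 in glutamate nuclei, against 1356.5 in microglia to 3310 in astrocytes among glia. Levels are therefore given as CPM, a gene's UMIs scaled to 1000000 UMIs of the summed nuclei of a gate in a library. The library totals ran from 19714338 to 25824289 UMIs, and library pairs shared 4 to 9 cell barcodes. Markers that set no gate were used to check the gates. The 6 such dopamine markers summed to 2113 to 2526 CPM in dopamine nuclei, to 835 to 1156 CPM in Slc26a7-Gad2 nuclei and to 60.7 to 78.4 CPM in GABA nuclei. The 5 such oligodendrocyte markers, at 22564 CPM or more in oligodendrocytes, still summed to 178 to 372 CPM in the neuron gates. The 4 neuron markers found summed to 3389 to 8371 CPM in the neuron gates, to 849 to 1016 CPM in precursors and to 124 to 155 CPM in oligodendrocytes. In the microglial gate the 5 astrocyte markers that set no gate summed to 1162 to 1959 CPM, of which Slc1a3 alone gave a mean of 1595 CPM. The serotonin markers reached at most 6.81 CPM in any gate, and the vascular ones at most 82.9 CPM, in astrocytes. What part stray RNA had in any level below was not tested.

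The GABA-B receptor is an obligate pair of proteins. Gabbr1 encodes the GB1 subunit, which binds GABA, and Gabbr2 encodes GB2, which carries GB1 to the cell surface and couples to Gi/o proteins. The Gβγ dimers that these release open GIRK channels, which let potassium out and hyperpolarize the cell. The channels are tetramers of GIRK1 (Kcnj3), GIRK2 (Kcnj6), GIRK3 (Kcnj9) and GIRK4 (Kcnj5). GIRK1 cannot form a working channel by itself and needs a partner, GIRK2 can form channels alone, GIRK3 carries a signal that sends channels to lysosomes, and GIRK4 is best known as the partner of GIRK1 in the atrium of the heart. Dopamine neurons of the midbrain are known for channels of GIRK2 and GIRK3 without GIRK1, and GABA-B and dopamine D2 receptors slow their firing through them.

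The promoters of Kcnj6 and Kcnj5 are shown because these genes had the narrowest distributions over the gates, each leading in a different cell type. The sequences are the 250 bases before the annotated gene start, from RefSeq on the rat build GRCr8, with Kcnj6 at chr11:47778349-47778598 and Kcnj5 at chr8:39011097-39011346, both on the minus strand and printed 5′ to 3′ on the gene's strand. Capitals mark a match to a searched motif.
Kcnj6: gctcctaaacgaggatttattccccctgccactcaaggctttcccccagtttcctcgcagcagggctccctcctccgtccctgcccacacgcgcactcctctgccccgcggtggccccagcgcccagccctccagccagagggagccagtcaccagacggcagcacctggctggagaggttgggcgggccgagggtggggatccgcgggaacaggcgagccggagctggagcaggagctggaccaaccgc
Kcnj5: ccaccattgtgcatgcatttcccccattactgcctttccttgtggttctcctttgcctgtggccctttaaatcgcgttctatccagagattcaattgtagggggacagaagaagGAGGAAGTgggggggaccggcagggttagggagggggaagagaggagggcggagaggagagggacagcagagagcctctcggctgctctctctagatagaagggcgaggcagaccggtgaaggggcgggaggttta
Both genes were among the 5 members with an entry, and Kcnj3 had none. Of the 250 bases, 69.2% were G or C for Kcnj6 and 57.2% for Kcnj5. Motifs were picked after the levels had been seen and were searched on both strands without overlap between them. They were AAAGGTCA for NR4A factors, TAATCC for PITX factors, TGTTTAC for FOXA factors and GAGGAAGT for PU.1, a factor of the myeloid lineage to which microglia belong. None of the 4 was in the Kcnj6 stretch. The PU.1 letters stood 136 to 129 bases before the start of Kcnj5, on its strand, and 2.04% of 33469 rat promoters of the same length held them. The PITX letters stood 171 to 166 bases before the start of Kcnj9 on the opposite strand, and 6.34% of promoters held them. The NR4A letters (1.24% of promoters) and the FOXA letters (3.21%) were in none of the members. A match of letters is a description and shows no bound factor.

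Gabbr1 was present in every gate, and Gabbr2 in neurons, astrocytes and precursors. Gabbr1 stood at 350 CPM (female 1), 343 (female 2), 400 (male 1) and 363 (male 2) in dopamine nuclei. The mean was 364 ± 25.4 CPM (SD, n = 4) there, 363 ± 33.1 CPM in Slc26a7-Gad2 nuclei, 447 ± 52.2 CPM in GABA nuclei and 415 ± 48.9 CPM in glutamate nuclei. The ranges of the 4 neuron gates overlapped. Against GABA nuclei, dopamine nuclei had the lower Gabbr1 level in 4 of 4 libraries, by a log2 fold change of −0.21 ± 0.07 (SE, edgeR adjusted p = 0.0269). That call ended under 6 of the 13 alternative settings, 3 of which each left out 1 library: adjusted p was 0.0712 without female 1, 0.0582 without male 1 and 0.148 without male 2. Differences of Gabbr1 between dopamine and glutamate nuclei (−0.11, edgeR adjusted p = 0.268) did not pass.

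Gabbr2 in dopamine nuclei was at 247 CPM (female 1), 286 (female 2), 253 (male 1) and 282 (male 2). The mean was 267 ± 19.8 CPM (SD, n = 4), with 243 ± 44.0 CPM in Slc26a7-Gad2 nuclei, 249 ± 28.2 CPM in GABA nuclei and 305 ± 21.6 CPM in glutamate nuclei. Each glutamate value was above the dopamine value of the same library, yet the difference of −0.12 did not pass (edgeR adjusted p = 0.310). Between GABA and glutamate nuclei Gabbr2 was lower in the former by −0.31 ± 0.07 (SE, edgeR adjusted p = 0.00355). This call was lost under 2 of 13 alternatives, 1 of them without male 1 (edgeR adjusted p = 0.0591). Of all receptor UMIs, Gabbr1 made up 57.7 ± 2.91% (SD, n = 4) in dopamine nuclei, 57.5 ± 4.52% in glutamate nuclei and 64.1 ± 5.32% in GABA nuclei. The share in dopamine nuclei was below that in GABA nuclei in 4 of 4 libraries, by −6.41 ± 3.43 points (SD). An exact two-sided sign-flip permutation test over the libraries gave p = 0.13, the smallest that 4 libraries allow (0.188 adjusted over 30 such comparisons of shares).

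Astrocytes, which take up GABA and carry receptors for it, had the highest level of both receptor genes. Gabbr1 in astrocytes was at 763 CPM (female 1), 611 (female 2), 842 (male 1) and 691 (male 2). Gabbr2 followed at 363, 372, 371 and 419 CPM in the same order. Neither gene's astrocyte values overlapped those of the gate next in rank. Against the mean of the log2 levels of the other glia gates, astrocytes were higher by 2.04 ± 0.07 for Gabbr1 (log2, SE, edgeR adjusted p = 1.91e-25) and by 5.32 ± 0.12 for Gabbr2 (edgeR adjusted p = 3.77e-31). Mean Gabbr2 was 381 CPM in astrocytes, 97.7 in precursors, 4.37 in oligodendrocytes and 2.47 in microglia. The size of 5.32 depends on the 2 low gates and on the small prior count that edgeR adds, and is not a fold over their mean CPM. With 2609 Gabbr2 UMIs in astrocytes and 3 in microglia, the ratio of levels was 180 (exact 95% interval 61.5 to 874, counting error only).

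Oligodendrocytes had the ligand-binding subunit almost alone. Their Gabbr1 level was 235 CPM (female 1), 180 (female 2), 242 (male 1) and 217 (male 2). Their Gabbr2 level was 2.95, 3.95, 7.07 and 3.48 CPM in the same order, so that Gabbr1 held 98.0 ± 0.70% of 5167 receptor UMIs (SD, n = 4). Gabbr2 was lower than in the other glia gates by −3.23 ± 0.61 (log2, SE, edgeR adjusted p = 1.54e-05). Gabbr1 was lower by −0.19 ± 0.08 (edgeR adjusted p = 0.0278), but with nuclei thinned to 2000 UMIs the value was 0.00202 and the call ended. Thinning also left out the 3067 oligodendrocytes with fewer UMIs. In all, the Gabbr1 call was lost under 6 of 13 alternatives, among them those without female 1, female 2 or male 2 (adjusted p 0.142, 0.0897 and 0.0649). Gabbr1 lies next to the myelin gene Mog in the rat gene order, and Mog stood at 2616 CPM in the oligodendrocyte gate that it defined. Whether reads were shared between the neighbours was not tested.

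Precursors kept both subunits, and microglia had little of either. In precursors the means were 263 ± 55.4 CPM for Gabbr1 and 97.7 ± 14.5 CPM for Gabbr2 (SD, n = 4), the latter higher than in the other glia gates by 2.56 ± 0.19 (log2, SE, edgeR adjusted p = 1.55e-14). In microglia Gabbr1 was at 133, 88.7, 76.6 and 106 CPM, the lowest of the 8 gates and below the other glia by −1.76 ± 0.12 (edgeR adjusted p = 6.20e-16). Gabbr2 gave 3 UMIs in all microglia. The mean of the log2 levels was higher in the 4 neuron gates than in the 4 glia gates, by 0.40 ± 0.05 for Gabbr1 and 3.21 ± 0.10 for Gabbr2 (SE). On this scale the low Gabbr2 levels of oligodendrocytes (4.37 CPM) and microglia (2.47 CPM) weigh heavily, and 3.21 is not the difference of mean CPM. Astrocytes ran against both differences, with both genes above every neuron gate.

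**Figure D1:**
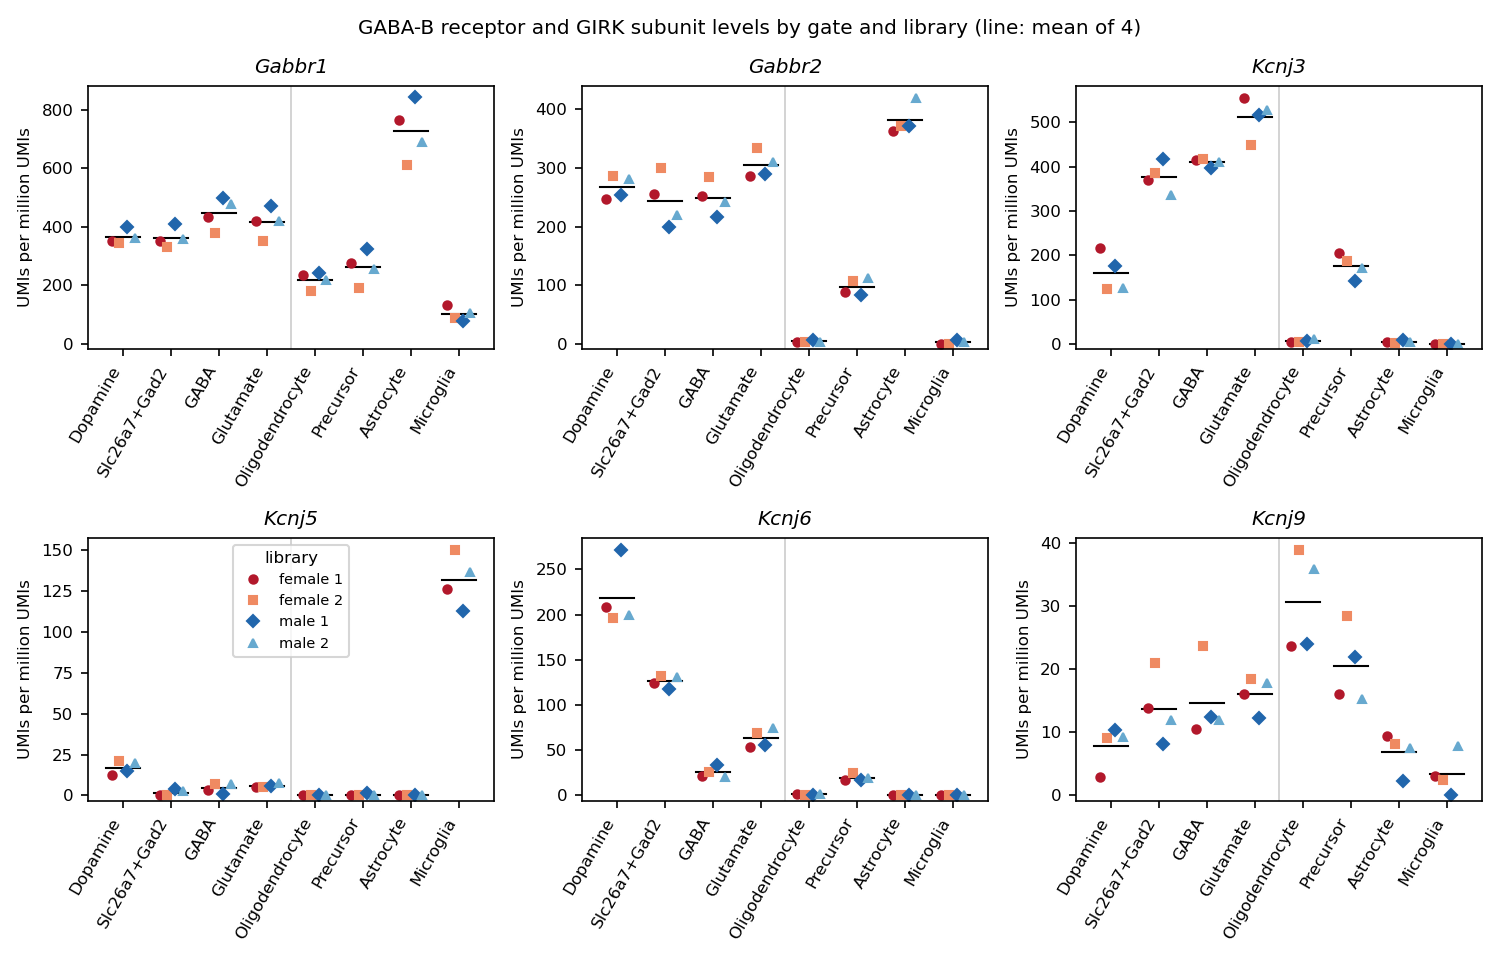
Levels of the 6 genes in CPM (linear axes) by gate, with 1 point per library and a line at the mean of 4 libraries; the vertical line parts neurons from glia. Kcnj6 peaks in dopamine nuclei (196 to 272), Kcnj5 in microglia (113 to 150), both receptor genes in astrocytes, and Kcnj9 in no gate without overlap.

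Kcnj6, the gene of GIRK2, was highest in dopamine nuclei and fell from gate to gate through the neurons. In dopamine nuclei it stood at 208 CPM (female 1), 196 (female 2), 272 (male 1) and 199 (male 2). In Slc26a7-Gad2 nuclei the values were 124, 132, 118 and 131 CPM, in glutamate nuclei 53.7, 69.3, 55.6 and 74.2 CPM, and in GABA nuclei 22.0, 26.1, 33.3 and 20.5 CPM. No 2 of these 4 groups of values overlapped. Male 1 had the highest dopamine value and the other libraries lay within 196 to 208 CPM. Dopamine nuclei were above GABA nuclei by 3.16 ± 0.14 (log2, SE, edgeR adjusted p = 2.81e-16) and above glutamate nuclei by 1.88 ± 0.12 (edgeR adjusted p = 6.24e-13). The 2 contrasts share the dopamine nuclei and are not independent.

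Slc26a7-Gad2 nuclei held an intermediate Kcnj6 level of 126 ± 6.54 CPM (SD, n = 4). They were above GABA nuclei by 2.33 ± 0.20 (log2, SE, edgeR adjusted p = 1.32e-09) and above glutamate nuclei by 1.05 ± 0.17 (edgeR adjusted p = 8.83e-05). Dopamine nuclei were higher again by 0.82 ± 0.16 (edgeR adjusted p = 3.89e-04). With every nucleus thinned to 2000 UMIs that last difference was 0.41 ± 0.28 (edgeR adjusted p = 0.488). Th was at 80.8 to 178 CPM in Slc26a7-Gad2 nuclei and at 599 to 798 CPM in dopamine nuclei, and 23 nuclei that met both gates were counted as dopamine nuclei. The Slc26a7-Gad2 and glutamate gates were both met by 50 nuclei, none of which counted as glutamate nuclei. GABA nuclei were below glutamate nuclei in Kcnj6 by −1.28 ± 0.14 (edgeR adjusted p = 7.42e-08).

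Among glia Kcnj6 was highest in precursors. Precursors had 17.0, 24.6, 17.1 and 19.8 CPM (81 UMIs). Oligodendrocytes gave 25 UMIs at a mean of 1.04 CPM, astrocytes gave 1 UMI, and microglia gave none. The precursor level was 133 times that of astrocytes (exact 95% interval 23.1 to 5298, counting error only) and at least 9.14-fold higher than in microglia, taking 3 UMIs over the whole group as the floor. Its values overlapped those of GABA nuclei. The neuron markers in precursors, at 849 to 1016 CPM, were also above those in the other glia, and their part in the Kcnj6 level was not tested.

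Kcnj3, the gene of GIRK1, ran the other way among neurons. It was lowest in dopamine nuclei, at 217 CPM (female 1), 124 (female 2), 176 (male 1) and 126 (male 2). It rose to 369, 386, 418 and 336 CPM in Slc26a7-Gad2 nuclei, 416, 416, 398 and 411 CPM in GABA nuclei, and 554, 448, 517 and 528 CPM in glutamate nuclei. The dopamine values lay below every other neuron value. Dopamine nuclei were lower than GABA nuclei by −1.28 ± 0.11 (log2, SE, edgeR adjusted p = 3.86e-10), than glutamate nuclei by −1.61 ± 0.11 (edgeR adjusted p = 3.62e-12) and than Slc26a7-Gad2 nuclei by −1.20 ± 0.13 (edgeR adjusted p = 1.13e-07). The dopamine level of 161 ± 44.6 CPM (SD, n = 4) overlapped that of precursors.

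The smaller differences of Kcnj3 among the other neurons were less stable. Glutamate nuclei were above GABA nuclei (GABA minus glutamate −0.33 ± 0.09, edgeR adjusted p = 0.0134) and above Slc26a7-Gad2 nuclei (−0.41 ± 0.11, edgeR adjusted p = 0.0219). The first call ended under 5 of 13 alternatives, among them those without female 1, male 1 or male 2 (adjusted p 0.0662, 0.0774 and 0.0887). The second ended under 4 of 13, among them those without female 1 or male 2 (0.0863 and 0.188). In glia, Kcnj3 was at 206, 186, 143 and 171 CPM in precursors, 6.90 ± 2.68 CPM in oligodendrocytes (161 UMIs, 24 of them in 1 nucleus), and gave 26 UMIs in astrocytes and none in microglia. The precursor level was at least 82.9-fold higher than in microglia by the same floor. The mean of the log2 levels was higher in the 4 neuron gates than in the 4 glia gates, by 6.08 ± 0.15 for Kcnj3 and 6.56 ± 0.21 for Kcnj6 (SE). The size of these folds depends on the small prior count that edgeR adds, since microglia gave no UMI of either gene. Precursor values overlapped those of dopamine nuclei for Kcnj3 and those of GABA nuclei for Kcnj6.

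Kcnj5, the gene of GIRK4, had its highest level outside neurons. Microglia stood at 126 CPM (female 1), 150 (female 2), 113 (male 1) and 137 (male 2). The 186 UMIs there compare with 3 UMIs in all other glia gates together, a ratio of levels of 1533 (exact 95% interval 517 to 7503, counting error only). Of the 924 microglia, 163 carried at least 1 Kcnj5 UMI. The gate was shallow, with 748 nuclei under 2000 UMIs, so a nucleus without a Kcnj5 UMI says little. The 4 microglial markers that did not set the gate (C1qb, Cx3cr1, P2ry12 and Itgam) summed to 4004 to 6360 CPM there and to at most 6.90 CPM in any other gate. Fli1, a transcription factor gene close to Kcnj5 in the rat gene order, was at 725 CPM in microglia, and Kcnj1, also close by, had no UMI there.

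Among neurons Kcnj5 was low and highest in dopamine nuclei. It stood there at 12.8, 20.9, 15.0 and 19.7 CPM (53 UMIs), against 5.86 ± 1.22 CPM in glutamate nuclei and 4.57 ± 2.79 CPM in GABA nuclei (SD, n = 4). Every dopamine value was above every value of the other neuron gates. Dopamine nuclei were higher than GABA nuclei by 2.02 ± 0.36 (log2, SE, edgeR adjusted p = 6.22e-05) and than glutamate nuclei by 1.55 ± 0.33 (edgeR adjusted p = 5.57e-04). Slc26a7-Gad2 nuclei gave 2 Kcnj5 UMIs, and there edgeR called the difference (adjusted p = 0.00243), with a fitted fold that depends on its prior count and is not given. The sum of all 6 microglial markers in dopamine nuclei was 2.84 to 11.5 CPM, with Cx3cr1 at 0.

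Kcnj9, the gene of GIRK3, was the member with the weakest pattern. In dopamine nuclei it had 25 UMIs, at 2.84 CPM (female 1), 9.14 (female 2), 10.4 (male 1) and 9.17 (male 2). The means were 13.7 ± 5.38 CPM in Slc26a7-Gad2 nuclei, 14.7 ± 6.08 CPM in GABA nuclei and 16.1 ± 2.80 CPM in glutamate nuclei (SD, n = 4). Dopamine nuclei were lower than GABA and glutamate nuclei in 4 of 4 libraries. Against glutamate nuclei the difference of −0.95 ± 0.30 passed (log2, SE, edgeR adjusted p = 0.0204), and against GABA nuclei −0.79 ± 0.32 did not (edgeR adjusted p = 0.0590). The former was lost under 4 of the 12 alternatives that gave a value, among them those without female 1, female 2 or male 2 (adjusted p 0.144, 0.0645 and 0.0695). Oligodendrocytes had the highest mean, at 23.6, 38.9, 23.9 and 35.8 CPM (744 UMIs), and were above the other glia gates by 2.04 ± 0.20 (edgeR adjusted p = 8.70e-12).

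Precursors were also higher in Kcnj9 than the other glia (20.4 ± 6.07 CPM, SD, n = 4; log2 difference 1.00 ± 0.28, edgeR adjusted p = 0.00247). Microglia were lower, with 5 UMIs (−2.24 ± 0.53, edgeR adjusted p = 4.06e-04). The lower level in astrocytes (−0.81 ± 0.35, edgeR adjusted p = 0.0462) lost its call under 10 of 13 alternatives, among them those without female 2, male 1 or male 2 (adjusted p 0.0771, 0.0737 and 0.358). In the rat gene order Kcnj9 overlaps Igsf8, a cell-surface protein gene, which stood at 94.5 CPM in oligodendrocytes, 79.0 in precursors, 87.2 in GABA nuclei, 67.4 in glutamate nuclei and 22.6 in dopamine nuclei. Igsf8 was at 57.1 CPM in Slc26a7-Gad2 nuclei, 31.6 in microglia and 12.4 in astrocytes. Among the neuron gates the 2 genes were thus both lowest in dopamine nuclei. Both were also low in astrocytes and microglia, where Kcnj9 was at 6.84 and 3.32 CPM. Whether counts passed between the 2 genes was not tested. Neurons and glia did not differ detectably in Kcnj9 (−0.03 ± 0.25, edgeR adjusted p = 0.929).

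The calls were read against the share of all genes called in the same contrast. Among 11021 genes tested between neuron gates, edgeR called 32.3% between dopamine and GABA nuclei, 27.4% between dopamine and glutamate nuclei and 17.1% between dopamine and Slc26a7-Gad2 nuclei. The members called were 4, 4 and 3 of 6. For Slc26a7-Gad2 against GABA nuclei it was 1 of 6 beside 9.98% of genes, for Slc26a7-Gad2 against glutamate nuclei 2 of 6 beside 8.22%, and for GABA against glutamate nuclei 3 of 6 beside 13.6%. Over the 36 tests 8 calls were higher and 9 lower, and the members' median log2 difference of −0.01 between dopamine and GABA nuclei was that of all genes. The family thus did not move in 1 direction: Kcnj6 and Kcnj5 were higher, and Kcnj3 lower, in dopamine nuclei. In glia most genes differed, with 65.9% of 11153 called for oligodendrocytes, 57.1% for precursors, 61.6% for astrocytes and 60.1% for microglia, so that the 16 of 24 member calls there are near the background. Between neurons and glia 73.9% of 12266 genes were called, and 5 of the 6 members. Of those 5, Kcnj5 (2.27 ± 0.55, edgeR adjusted p = 2.64e-04) lost its call under 3 alternatives, and microglia held more of it than any neuron gate. The 2.27 compares means of log2 levels, and oligodendrocytes, precursors and astrocytes gave 1 Kcnj5 UMI each. Its size therefore depends on the prior count of edgeR, and it does not mean a higher mean CPM in neurons. Microglia stood at 132 CPM and dopamine nuclei, the highest neuron gate, at 17.1 CPM.

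**Figure D2:**
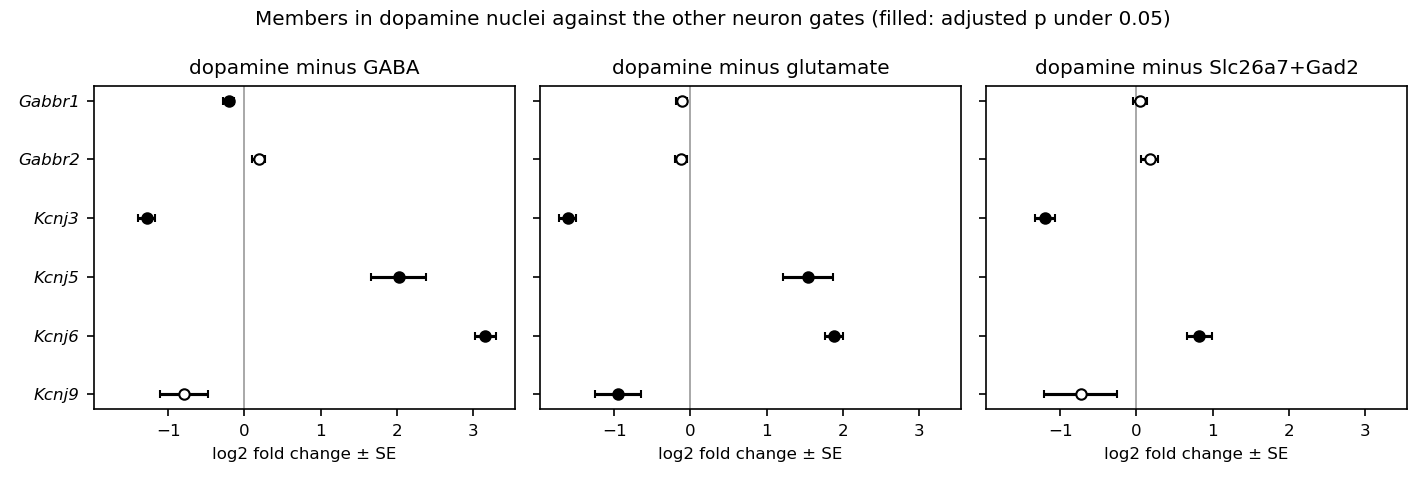
Log2 fold change (x axis, error bars SE from edgeR over 4 libraries) of each gene (y axis) in dopamine nuclei against the other neuron gates, filled where the adjusted p was under 0.05; Kcnj5 is not drawn against Slc26a7-Gad2 nuclei, which gave 2 UMIs. Kcnj6 lies to the right and Kcnj3 to the left in all 3 panels, while both receptor genes lie within 0.21 of 0.

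The subunit mix, each gene's share of the GIRK UMIs of a gate, set dopamine nuclei apart from the other neurons. The shares compare gates. They are not a ratio of proteins, since counts were not scaled by gene length and capture in nuclei can differ between genes. In dopamine nuclei Kcnj6 made up 47.3 to 57.4% of the GIRK UMIs of a library, with a mean of 54.2 ± 4.69% (SD, n = 4; 1260 UMIs). Kcnj3 gave 39.4 ± 6.61%, Kcnj5 4.40 ± 1.59% and Kcnj9 2.01 ± 0.93%. Female 1 was the library in which Kcnj3, at 49.2%, exceeded Kcnj6, at 47.3%. In the other neurons Kcnj3 led in every library, with 72.6 ± 2.75% in Slc26a7-Gad2 nuclei, 90.2 ± 1.81% in GABA nuclei and 85.7 ± 2.55% in glutamate nuclei. Kcnj6 gave 24.4 ± 2.32%, 5.61 ± 1.32% and 10.6 ± 2.00% there.

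The Kcnj6 share was larger in dopamine than in GABA nuclei by 48.6 ± 4.22 points (SD, n = 4), than in glutamate nuclei by 43.6 ± 3.84 points and than in Slc26a7-Gad2 nuclei by 29.8 ± 5.49 points. It was larger in Slc26a7-Gad2 than in GABA nuclei by 18.8 ± 3.58 points, and in glutamate than in GABA nuclei in 4 of 4 libraries (GABA minus glutamate −5.03 ± 2.69 points). All of these had 1 direction in 4 of 4 libraries, and the exact sign-flip permutation test gave the smallest p possible, 0.13 (0.188 adjusted). Among glia the mix changed with the cell type. Precursors were led by Kcnj3 (81.2 ± 4.04%, with Kcnj6 at 9.08 ± 1.37% and Kcnj9 at 9.51 ± 2.81%), oligodendrocytes were led by Kcnj9 (79.2 ± 5.64% of 931 UMIs) and microglia by Kcnj5 (97.7 ± 2.24% of 191 UMIs). Astrocytes, the richest in receptor RNA, had 78 GIRK UMIs in all, too few for a mix.

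**Figure D3:**
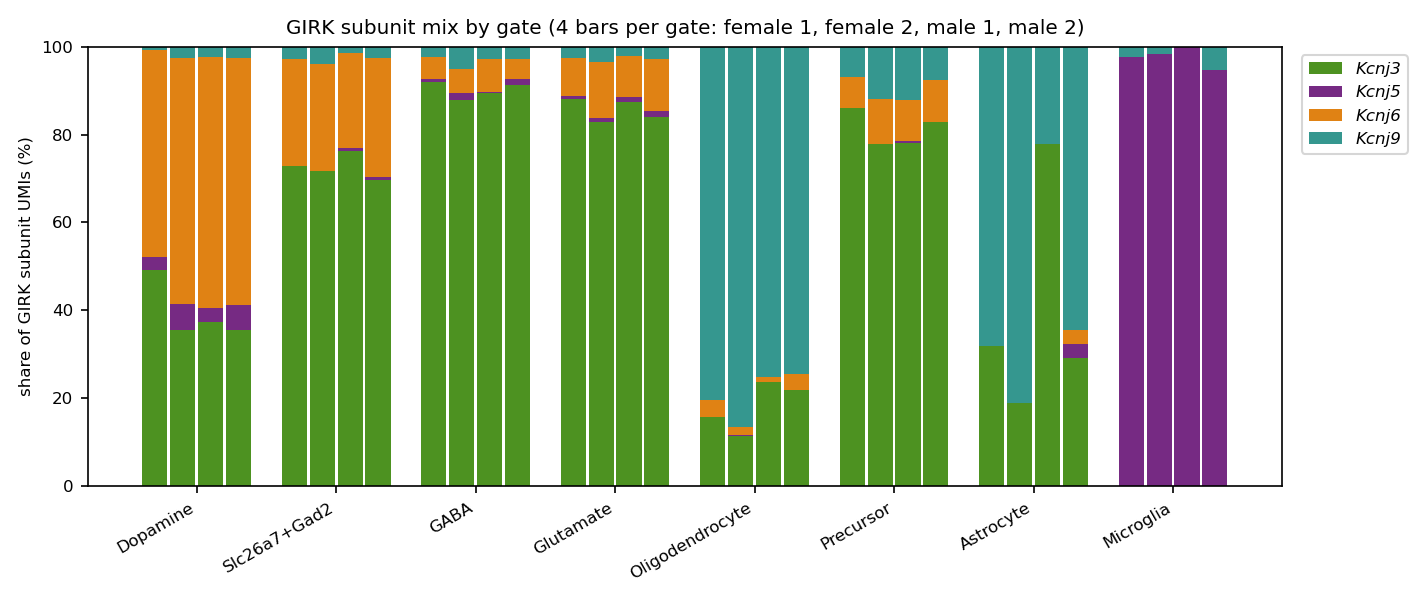
Share of GIRK subunit UMIs (%, y axis) by gate, 1 stacked bar per library in the order female 1, female 2, male 1, male 2. Kcnj6 takes 47.3 to 57.4% in dopamine nuclei and 4.55 to 7.50% in GABA nuclei, where Kcnj3 fills most of the bar; the astrocyte bars rest on 78 UMIs in all.

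Counts per nucleus showed how the subunits were spread over nuclei. Of the 306 dopamine nuclei, 109 had no Kcnj6 UMI, 71 had 1 and 126 had 2 or more, up to 36. For Kcnj3, 167 had none, 49 had 1 and 90 had 2 or more, up to 20. So both genes were strong in some dopamine nuclei and unseen in others. To compare shares of nuclei across depths, nuclei were thinned to 2000 UMIs, and those with fewer were left out. Among neurons this left out 12 glutamate, 3 GABA and 2 Slc26a7-Gad2 nuclei. Among glia it left out 3067 of 8503 oligodendrocytes, 335 of 1331 precursors, 311 of 1851 astrocytes and 748 of 924 microglia. At that depth Kcnj6 was seen in 27.4 ± 0.58% of dopamine nuclei (SD, n = 4), 18.8 ± 2.01% of Slc26a7-Gad2, 10.8 ± 2.03% of glutamate and 4.20 ± 0.67% of GABA nuclei, against 0.0939% of oligodendrocytes. Kcnj3 was seen in 22.6 ± 3.70% of dopamine nuclei, 43.7 ± 3.76% of Slc26a7-Gad2, 48.7 ± 1.67% of GABA and 56.7 ± 2.15% of glutamate nuclei, against 0.686% of oligodendrocytes. Without thinning 64.6% of dopamine nuclei had a Kcnj6 UMI and 45.8% a Kcnj3 UMI.

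Kcnj3 and Kcnj6 were seen together less often in dopamine nuclei than the product of their shares. At 2000 UMIs 4.52% of dopamine nuclei carried both, while the product of the 2 shares was 6.21%. The ratio was 0.731 ± 0.099 (SD, n = 4), from 0.650 to 0.863, and below 1 in 4 of 4 libraries. It was 0.937 ± 0.143 in Slc26a7-Gad2 nuclei, 1.04 ± 0.14 in GABA nuclei and 1.00 ± 0.03 in glutamate nuclei, each with libraries on both sides of 1. The ratio was computed after the levels had been seen and is given without a test. For Gabbr1 with Gabbr2 the ratio was 0.962 ± 0.048 in dopamine nuclei, 0.932 ± 0.104 in Slc26a7-Gad2 nuclei, 0.993 ± 0.030 in GABA nuclei, 0.993 ± 0.015 in glutamate nuclei and 1.02 ± 0.02 in astrocytes.

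Classed by which GIRK genes were seen at 2000 UMIs, 21.8% of dopamine nuclei had Kcnj6 alone, 17.1% Kcnj3 alone, 4.23% both and no other, and 51.7% none. The class with Kcnj6 alone held 10.9% of Slc26a7-Gad2 nuclei, 4.44% of glutamate nuclei and 1.97% of GABA nuclei. The class with Kcnj3 alone held 35.4%, 48.5% and 44.9% of them. Many absences at this depth are sampling: without thinning 86.1% of dopamine nuclei had at least 1 GIRK UMI, and 76.1% had both receptor genes, against 20.0% at 2000 UMIs. Gabbr1 was seen at 2000 UMIs in 53.4% of dopamine and 72.2% of astrocyte nuclei, and Gabbr2 in 38.9% and 47.8%. Both receptor genes were seen in 35.1% of astrocytes and 6.88% of precursors, and any GIRK gene in 1.70% of astrocytes and 28.3% of precursors. Kcnj5 was seen in 25.3 ± 6.07% of the 176 microglia deep enough and in 3.38 ± 0.69% of dopamine nuclei.

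**Figure D4:**
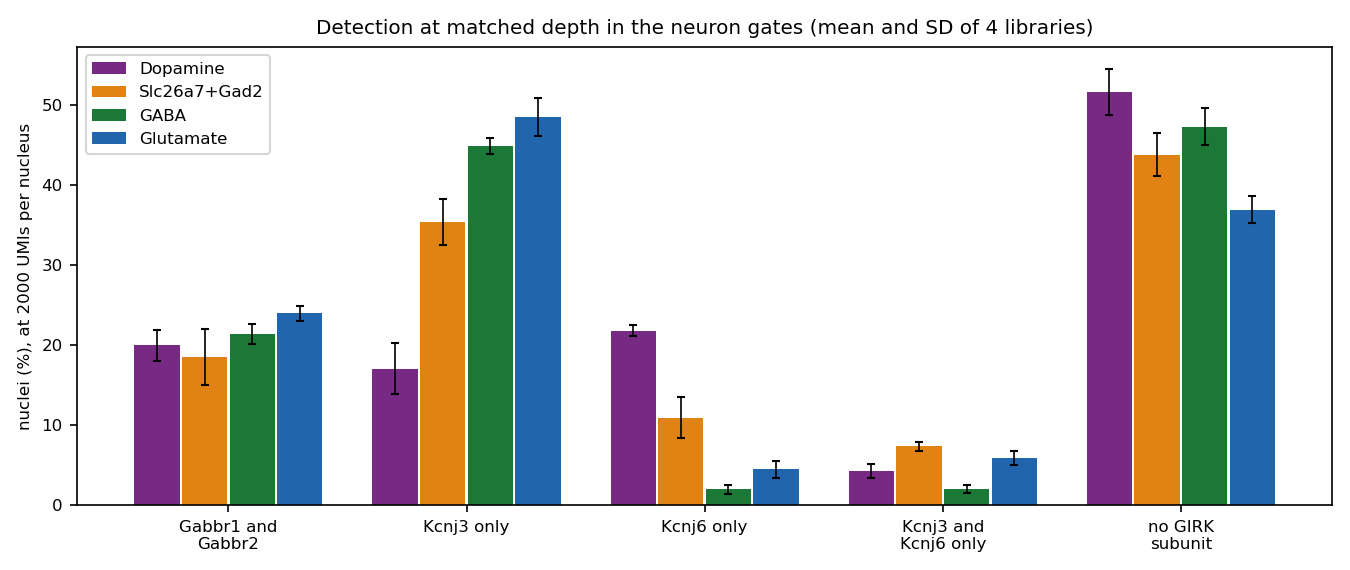
Share of nuclei (%, y axis) in the 4 neuron gates with the named genes seen after thinning to 2000 UMIs per nucleus, bars and error bars being the mean and SD of 4 libraries. Kcnj6 without another GIRK gene is most frequent in dopamine nuclei (21.8%) and Kcnj3 without another in glutamate nuclei (48.5%).

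Dopamine nuclei were divided further by 4 genes that mark kinds of dopamine neuron, each by at least 1 UMI against none. By Slc17a6, the vesicular glutamate transporter, 54 nuclei had a UMI and 252 had none. Kcnj6 stood at 156, 166, 141 and 99.8 CPM with Slc17a6 and at 218, 203, 305 and 230 CPM without it (female 1, female 2, male 1, male 2). Kcnj3 stood at 329, 173, 316 and 161 CPM with it and at 196, 113, 140 and 115 CPM without it. So Kcnj6 was lower and Kcnj3 higher with Slc17a6 in 4 of 4 libraries. The log2 differences were −0.80 ± 0.19 for Kcnj6 (SE, edgeR adjusted p = 0.0177) and 0.78 ± 0.18 for Kcnj3 (edgeR adjusted p = 0.0124), in a contrast where 1.81% of genes were called. Nuclei with Slc17a6 were deeper (median 10932.5 against 8748.5 UMIs). Thinned to 2000 UMIs the values were −0.21 (adjusted p = 0.921) and 0.16 (adjusted p = 0.941). With DESeq2 they were −0.78 (adjusted p = 0.201) and 0.78 (adjusted p = 0.135). Without male 1 they were −0.67 (adjusted p = 0.229) and 0.61 (adjusted p = 0.276), Kcnj6 lost its call also without male 2 (0.198) and Kcnj3 also without female 1 (0.0591). Over the 13 alternatives Kcnj6 lost its call in 5 and Kcnj3 in 7. Neither call remained with nuclei of exactly 1 gate. That setting drops dopamine nuclei that also met the Slc26a7-Gad2 gate (23 met both) or the glutamate gate (19 met both). Dopamine nuclei of male 1 also had the most Slc26a7 (140 CPM, against 8.51 to 54.8 CPM in the other libraries). The same held for Gad2 (135 CPM, against 24.1 to 96.6 CPM). Beyond the setting with exactly 1 gate, the part of these nuclei in the calls was not tested.

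By Sox6, a transcription factor of nigral-type dopamine neurons, 59 nuclei had a UMI and 247 had none. Kcnj6 stood at 387, 221, 452 and 168 CPM with Sox6 and at 166, 186, 173 and 203 CPM without it, so male 2, with 10 such nuclei, went against the other 3 libraries. The log2 difference was 0.82 ± 0.21 (SE, edgeR adjusted p = 0.0369, with 1.59% of genes called). It was 0.54 (adjusted p = 0.583) without male 1 and 0.66 (adjusted p = 0.243) without female 1. The call was lost under 7 of 13 alternatives, among them DESeq2 (0.77, adjusted p = 0.321) and thinning (0.75, adjusted p = 0.375). Kcnj3 with Sox6 was at 59.6, 113, 55.3 and 246 CPM and without it at 254, 129, 242 and 110 CPM, and its difference of −0.77 ± 0.33 did not pass (edgeR adjusted p = 0.375). Again male 2 was the exception. Divided by Calb1 (153 and 153 nuclei, 0.441% of genes called) or Aldh1a1 (123 and 183 nuclei, 5.45% called), no member was called by edgeR, none had an unadjusted p under 0.05, and DESeq2 called none. Kcnj5 and Kcnj9 were too low to be tested in these contrasts, which left 16 tests.

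**Figure D5:**
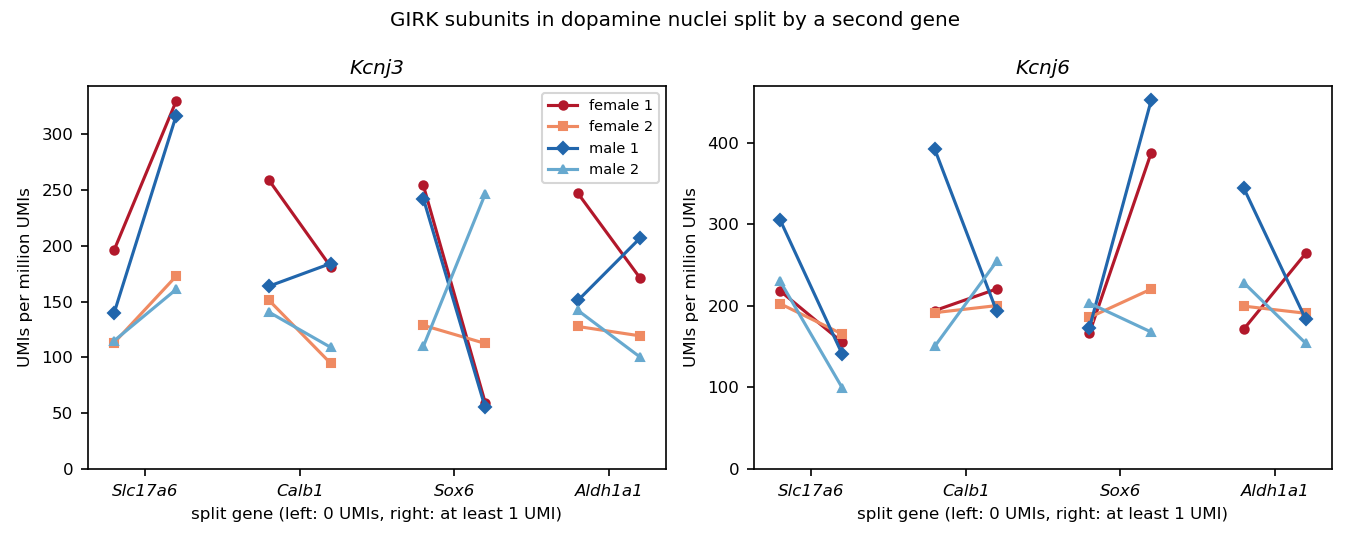
Levels (CPM) of Kcnj3 (left) and Kcnj6 (right) in dopamine nuclei with 0 (left end of each line) or at least 1 UMI (right end) of the gene named on the x axis, 1 line per library. With Slc17a6 all 4 lines rise for Kcnj3 and fall for Kcnj6; with Sox6 male 2 crosses the other lines.

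No member passed the test between the sexes. Of 48 pairs of gene and gate, 35 had enough counts to be tested, and edgeR called none at an adjusted p under 0.05. DESeq2 called none. At an unadjusted p under 0.05 there were 2, both for Kcnj3: female minus male was −0.87 in oligodendrocytes (edgeR adjusted p = 0.516) and 0.35 in precursors (edgeR adjusted p = 0.740). Few genes of any kind were called by sex, 0.0782% of the 76698 tests of all genes over the 8 gates. In dopamine nuclei Kcnj6 was at −0.23 ± 0.17 and Kcnj3 at 0.16 ± 0.22 (log2, female minus male, SE). Both differences were within 2 SE of 0.

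The partners of the receptor and the channels were followed in the same neuron contrasts. Of 6 genes for proteins that bind GABA-B receptors 3 were found, and Ajap1, which binds GB1, was higher in dopamine than in GABA nuclei (0.89 ± 0.13, log2, SE) while App was lower (−0.34 ± 0.07). Of 13 G protein subunit genes tested, 5 were higher and 2 lower in dopamine than in GABA nuclei, 5 higher and 1 lower than in glutamate nuclei, and 4 higher and 0 lower than in Slc26a7-Gad2 nuclei. Of all genes 32.3%, 27.4% and 17.1% were called in these contrasts. Gnai1, a Gi α subunit, was at 245 CPM in dopamine, 112 in Slc26a7-Gad2, 88.0 in GABA and 91.9 in glutamate nuclei (1.55 ± 0.10 against GABA nuclei). The γ subunit genes Gng12 (1.86 ± 0.26) and Gng4 (1.20 ± 0.19) were higher, and Gng7 (−2.22 ± 0.26) was lower. All of these passed at an edgeR adjusted p under 0.05.

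Regulators of G protein signalling and the other receptors that open GIRK channels split further. The same shares of all genes called stand behind their counts. Of 6 regulator genes tested, 3 were higher and 1 lower than in GABA nuclei, and 2 higher and 0 lower than in Slc26a7-Gad2 nuclei. Against glutamate nuclei 1 was higher and 2 were lower, with a median log2 difference of −0.09. In the contrast with GABA nuclei Rgs8 (0.94 ± 0.13), Rgs7 (0.58 ± 0.10) and Rgs9 (0.61 ± 0.20) were higher and Rgs4 (−1.27 ± 0.44) was lower (log2, SE). Against glutamate nuclei Rgs7 was lower (−0.35), so its direction depended on the neuron compared. Of 14 receptor genes tested, 2 were higher and 8 lower than in GABA nuclei, with a median log2 difference of −1.15 beside −0.01 over all genes. Against glutamate nuclei 2 were higher and 11 lower, with a median of −1.78, and against Slc26a7-Gad2 nuclei 1 was higher and 4 lower, with a median of −1.35. Drd2, the dopamine D2 receptor, was higher (328 CPM in dopamine, 80.9 in Slc26a7-Gad2 and 21.4 in GABA nuclei; 4.05 ± 0.18), and Oprk1, the kappa opioid receptor, was the other gene that was higher (1.90). The mu opioid receptor gene Oprm1 was lower (8.41 against 173 CPM in GABA nuclei; −4.28 ± 0.27), as were Oprd1 (−3.87 ± 0.40) and Grm3 (−1.36 ± 0.21). Of 3 other inward rectifier genes tested, Kcnj13 was higher (0.93 ± 0.33) and Kcnj12 lower (−1.58 ± 0.50) than in GABA nuclei, while Kcnj10, the glial potassium channel gene, was at 127 CPM in astrocytes and had no UMI in dopamine nuclei.

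The genes most alike in pattern were found by Pearson's r of log2(CPM + 5) over the 16 neuron sums (4 gates in 4 libraries), among 9652 genes. Sums of 1 library share its depth and handling, and r is a description. Nearest to Kcnj6 were Ddc (0.976), which encodes the decarboxylase that makes dopamine, Homer2 (0.964) and Bnc2 (0.963). Nearest to Kcnj3 were Tbc1d4 (0.973), Frmd5 (0.952) and Pde8b (0.951), and to Kcnj5 Srrm4 (0.946), Jazf1 (0.922) and Tmem132b (0.915). The receptor genes had weaker matches, with Mbp (0.905) first for Gabbr1 and Ssh2 (0.881) for Gabbr2. Mbp, a myelin gene, stood at 55.8 to 81.6 CPM on average in the neuron gates and 6823 CPM in oligodendrocytes, and the part of stray myelin RNA in its match with Gabbr1 was not tested. For Kcnj9 Disc1 came first (0.862).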

How the data were processed

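The authors deposited UMI counts per gene and barcode for each of the 4 libraries as 10x matrices. Per the file headers they were written by software version 3.0.2, and per the submitters' processing notes Cell Ranger and the rat build rn6 were used; the use of intronic reads is not stated there. Counts were used as deposited. Barcodes with at least 200 genes and at most 5% mitochondrial UMIs were kept, and the top Scrublet scores (scanpy 1.11.5) were removed at 0.8% per 1000 barcodes, 980 in all with 6 barcodes lost to the other filters. Among gates, dopamine came before Slc26a7-Gad2, then GABA, then glutamate. Nuclei with a neuron and a glia gate (114), with 2 or more glia gates (28), or with a GABA gate besides the first 2 neuron gates were left out.

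Counts were summed per gate and library and tested with edgeR 4.0.16 in R 4.3.3 (quasi-likelihood, TMM, filterByExpr, library as a block except for sex, gate genes left out). Contrasts that join several gates compared means of their log2 levels, not means of their CPM. P-values were adjusted by Benjamini-Hochberg over all genes tested, with a threshold of 0.05, and SE was taken as the absolute log2 fold change divided by the root of F. The fits were tested on simulated data. The outcome is not given, and no result here rests on it. Each sex contrast compares libraries of separate pools of animals. Shares were compared by exact permutation (numpy 2.4.6). Alternatives were DESeq2 1.42.0, relative log expression scaling, no filter on low counts, doublets kept, other gate rules, thinning, no block, and each library left out. Intervals cover counting error only.

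The members, lists, gates and contrasts were chosen with earlier results of these data known. Named genes were the members, the gate genes, in each list up to 4 called genes with the lowest p between dopamine and GABA nuclei, and the 3 genes most alike to each member. Oprk1, Kcnj10, Fli1, Kcnj1, Igsf8, Rgs7 against glutamate nuclei and the co-occurrence ratio were added after values had been seen. Gene order came from RefSeq on GRCr8, a different build from that of the counts. So no coordinates are given beyond those of the printed promoter stretches, which are on GRCr8. Kctd8, Kctd12, Kctd16, Rgs11 and Rgs7bp were not matched by name and were not analysed here.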

Additional observations from a re-analysis of the deposited data

Results flagged for a closer look

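The log2 ratio of Gabbr2 between dopamine and Slc26a7-Gad2 nuclei, on log2(CPM + 5), had a mean of −0.0561 in the female libraries and 0.346 in the male libraries, with both female libraries below 0 and both male libraries above it. Between Slc26a7-Gad2 and GABA nuclei the mean ratio of Gabbr2 was 0.0430 in females and −0.128 in males, again with every library of a sex on the same side of 0. These 2 ratios were the only ones with such a pattern when 6 members were screened over 6 pairs of neuron gates. With 2 libraries per sex the pattern can easily arise by chance. Both ratios share the Slc26a7-Gad2 nuclei, which numbered 24 in male 1 to 43 in male 2. The difference between the sexes was not tested for either ratio, and Gabbr2 in Slc26a7-Gad2 nuclei was not called by sex in edgeR (female minus male 0.40 ± 0.21, adjusted p = 0.998).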

How the results depend on the processing

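Of 41 pairs of gene and contrast called, 28 kept their direction and call under every alternative that gave a value, 13 lost the call under at least 1, and 1 of these changed sign (Gabbr1 in oligodendrocytes against other glia, 0.00202 with nuclei thinned to 2000 UMIs). The kept ones include Kcnj3 in dopamine nuclei against each other neuron gate and Kcnj6 against GABA and glutamate nuclei. The count of calls between neuron gates was 17, became 11 with thinning, and ran from 13 to 16 with 1 library left out. The count within dopamine nuclei was 3, and was 0 with DESeq2, 0 with nuclei of exactly 1 gate, 1 with every gate minimum 1 UMI higher, 0 with thinning, and 0 to 3 with 1 library left out (0 without male 1). The Kcnj6 share in Slc26a7-Gad2 nuclei was 24.4%, and 30.6% with higher minima, 28.5% with exactly 1 gate and 28.0% as a mean over nuclei. The causes were not tested, beyond thinning leaving fewer UMIs and the stricter gates fewer nuclei. Thinning also dropped the nuclei with under 2000 UMIs, among them 3067 oligodendrocytes and 748 microglia. A member filtered out under an alternative gives no value there.

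The libraries share replicate numbers 1 and 2 across the sexes, but the labels do not say that a number marks a shared batch. Same-numbered libraries had deviations that correlated at 0.380 over 13032 genes, with only 2 pairs, so the numbers were not taken to pair the samples. With the number as a replicate block the sex tests called 0 members, as without it. Without the library as a replicate block the calls between neuron gates were 12 and those within dopamine nuclei 2. Depth limits Kcnj9 and Kcnj5 most, with 25 and 53 UMIs in dopamine nuclei.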
